A study of Mus musculus with 16 samples.

Results

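The genes described here are the cytochromes P450 of families 1 to 4 in mouse liver, without the Cyp2c genes and without Cyp4a10 and Cyp4a14. Members were chosen by gene symbol, with earlier results of these data known, and 43 of 18193 genes on the array met the rule. They fall into 18 subfamilies and are measured by 56 probe sets, of which the brightest of each gene (highest mean over all arrays) stands for that gene. Livers of mice aged 3 to 6 months were perfused in a single pass, and RNA was hybridised to Affymetrix arrays. The 8 groups were polysome RNA of global Gcn2-/- livers without methionine and with methionine, polysome RNA of wild-type littermate livers without and with methionine, and unfractionated RNA of the same 4 kinds of liver in the same order. Each group has 2 arrays, 16 in all, and the labels describe the replicates as biological and the RNA as pooled from 2 perfused livers per condition, taken here as 2 livers for each array. Polysome RNA comes from the gradient part in which mRNAs carry ribosomes, and unfractionated RNA from the supernatant before the gradient. Gcn2 is lost in every cell of the knockout mice, and all livers, including those with methionine, had been perfused. In the text, KO stands for Gcn2-/- and WT for wild-type.

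P450 enzymes of these families are heme proteins of the endoplasmic reticulum. They take electrons from P450 oxidoreductase and add oxygen to drugs, pollutants, steroids and fatty acids. In liver several of these mRNAs depend on ligand-activated receptors. Ahr acts on Cyp1a genes, Nr1i3 (CAR) on Cyp2b10, Nr1i2 (PXR) on Cyp3a11 and Ppara on Cyp4a genes. Several mouse members also differ between the sexes, among them the male-biased Cyp2d9 and Cyp4a12a and the female-biased Cyp2b9 and Cyp2b13. Gcn2, encoded by Eif2ak4, is the kinase that senses uncharged tRNA when an amino acid is short and phosphorylates eIF2.

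The labels were checked against the targeted gene. Eif2ak4 had a signal of 21.2 to 52.9 in the 8 KO arrays and 62.9 to 103.5 in the 8 WT arrays, and the ranges did not overlap. Its KO minus WT difference was -0.74 ± 0.22 (log2 ± SE, adjusted p = 0.0639) in polysome RNA and -0.94 ± 0.22 (adjusted p = 0.0468) in unfractionated RNA. The hepatocyte marker Alb read between 13900 and 21957 in all 16 arrays. The Y-chromosome transcript Eif2s3y read 563 to 1095 in every array, and Xist, transcribed from the inactive X, read 4.96 to 34.8, while the labels give no sex. Replicate arrays correlated at 0.968 to 0.976 (Pearson's r of log2(signal + 16) across the 10916 genes tested, whose signals are not independent replicates). A signal of at least 80 was reached by 26.9% to 28.5% of all probe sets on an array.

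Members spanned the whole range of brightness. Of the 43 P450 genes, 20 had a signal of 80 or more in all 16 arrays, 6 in some arrays and 17 in none. The dimmest 40% of all genes were not tested, which left 31 of the 43 P450 genes and 10916 genes in all. The 12 genes not tested were Cyp1a1, Cyp1b1, Cyp2b13, Cyp2b19, Cyp2d34, Cyp2j11, Cyp2j13, Cyp2s1, Cyp3a16, Cyp4f16, Cyp4f18 and Cyp4x1. Cyp1a1, the classical Ahr-induced enzyme, had a mean signal of 24.1 and lay just outside the limit, and Cyp2j9, at 28.6, lay just inside. Cyp1a1 ranged over 3.05 to 37.3, Cyp1b1 over 2.67 to 26.6, Cyp2b13 over 1.19 to 21.7, Cyp2s1 over 3.32 to 36.9 and Cyp3a16 over 0.281 to 23.1, so these 5 probe sets stayed dim in every group. Cyp2a4, Cyp2a5 and Cyp3a41a share probe sets with other symbols and are not reported. Cyp4a12b had no probe set annotated to it alone, and the signal of the near-identical Cyp4a12a may include it. The 8 Cyp2d and 5 Cyp3a genes are close paralogs as well, and cross-hybridisation among them cannot be told apart from their own signal.

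Replicate spread varied widely among the members. The median SD between replicate arrays was 0.211 (log2) over the 31 tested P450 genes and 0.260 over all genes tested. Cyp4f15, which hydroxylates fatty acids and leukotrienes, had an SD of 0.0865, and Cyp2e1, the ethanol- and acetaminophen-oxidising P450, had 0.0950. At the other end stood Cyp2b9 with 0.800 and Cyp2d40 with 0.652, both with dim probe sets.

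The first comparison asks how omission of methionine from the perfusate changed P450 mRNAs on polysomes, in livers with and without Gcn2. Without methionine, 0 of 31 tested P450 genes were called in KO polysome RNA, and 6 of 31 were called in WT polysome RNA, all 6 higher. These were Cyp1a2, Cyp2a12, Cyp2b10, Cyp2j5, Cyp3a13 and Cyp4f15, which belong to 6 different subfamilies. Among all genes tested, 0.156% were called in KO polysomes (limma, Benjamini-Hochberg adjusted p under 0.05, either direction) and 2.58% were called in WT polysomes, 1.47% higher and 1.12% lower. The median log2 change of the 31 genes, without minus with methionine, was 0.13 in KO polysomes, with 25 of 31 positive, and 0.55 in WT polysomes, with 27 of 31 positive. Over all genes the medians were -0.0046 and 0.024, with 49.4% and 52.4% positive. In bulk liver RNA, fewer cells of a type and less RNA per cell cannot be told apart.

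Cyp1a2, the pericentral enzyme that oxidises caffeine and aromatic amines, read 9023 and 8377 in the KO polysome arrays without methionine, against 7438 and 8156 with it. In WT polysomes it read 12364 and 9834 without methionine, against 6414 and 5183 with it. The WT arrays with methionine were thus the lowest of the 8 polysome arrays and those without were the highest. The WT change was 0.93 ± 0.16 (log2 ± SE, adjusted p = 0.00712), a 1.91-fold rise, beside 0.16 ± 0.16 in KO polysomes. Cyp2a12, a steroid hydroxylase, read 2966 and 2457 in KO polysomes without methionine, against 2209 and 2602 with it, and 4294 and 3981 in WT polysomes without methionine, against 2399.7 and 2107 with it. The KO arrays with and without methionine overlapped and the WT arrays did not. Its WT change was 0.87 ± 0.15 (adjusted p = 0.00673) and its KO change 0.17 ± 0.15.

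Cyp2b10, the phenobarbital-inducible target of CAR, had the greatest change of the 6. It read 190.2 and 122 in KO polysomes without methionine, against 103 and 197 with it. In WT polysomes it read 164 and 136 without methionine, against 63.3 and 37.1 with it. The low arrays were those of WT livers with methionine: in both RNA fractions they lay between 37.1 and 69.7, while the other 12 arrays lay between 102.6 and 254.7. The WT polysome change was 1.35 ± 0.31 (adjusted p = 0.0339), and the 2 other Cyp2b10 probe sets gave 1.70 and 1.43 in the same comparison. With the mean of its probe sets the gene was not called. Cyp3a13, a Cyp3a enzyme of liver and intestine, read 1119 and 786 in KO polysomes without methionine, against 738 and 865 with it, and 1377 and 1543 in WT polysomes without methionine, against 604 and 757 with it. The WT change of 1.09 ± 0.20 (adjusted p = 0.0105) stood beside a KO change of 0.23 ± 0.20, and only the WT arrays were apart.

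Cyp2j5, an arachidonic acid epoxygenase, read 2271 and 2228 in KO polysomes without methionine, against 1835 and 2155 with it. In WT polysomes it read 2974 and 3454 without methionine, against 1817 and 1986 with it, a change of 0.75 ± 0.15 (adjusted p = 0.0171), beside 0.18 ± 0.15 in KO polysomes. The media were apart in both genotypes, narrowly in KO. Cyp4f15, a fatty acid hydroxylase, had the smallest p of all members in KO polysomes. It read 629 and 579.8 in KO polysomes without methionine, against 369 and 398 with it, and 665 and 665 in WT polysomes without methionine, against 409 and 393 with it. The arrays were apart in both genotypes, and the changes were 0.64 ± 0.16 (adjusted p = 0.161) in KO and 0.71 ± 0.16 (adjusted p = 0.0284) in WT polysomes.

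**Figure D1:**
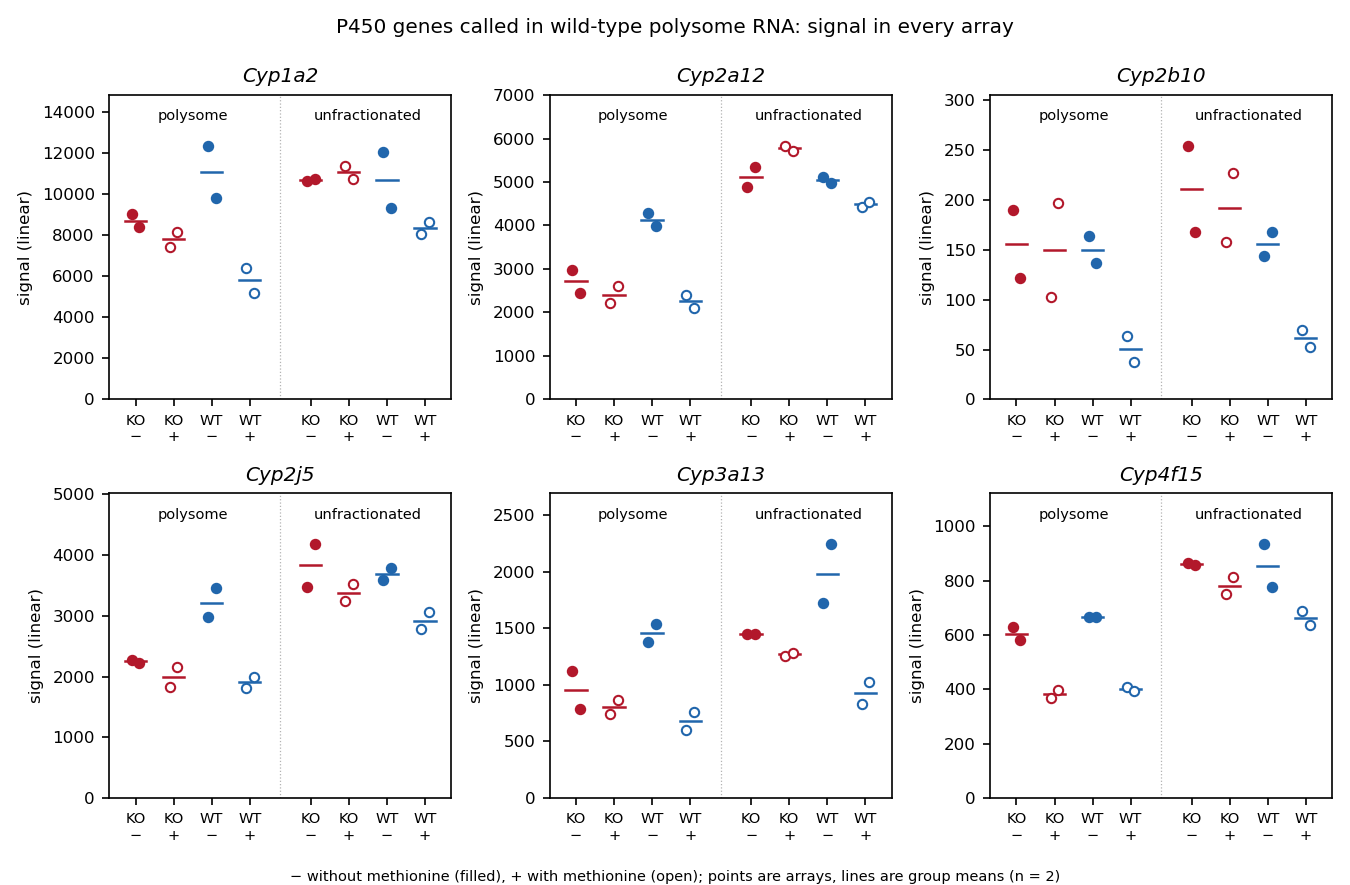
Signal (linear) of the 6 P450 genes called in WT polysome RNA, in every array: polysome arrays on the left and unfractionated arrays on the right of each panel, KO in red and WT in blue, without methionine (-, filled) left of with methionine (+, open), lines at the mean of 2 arrays. In WT polysomes the filled points lie above the open ones in all 6 panels, and Cyp2b10 in WT arrays with methionine lies between 37.1 and 69.7.

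The WT polysome calls depended on the scaling of the arrays, on how the spread was estimated and on single arrays. When arrays were scaled to a common median instead of the deposited common mean, 0 of 31 P450 genes were called, and the P450 median became 0.22 beside -0.27 over all genes. With only the compared groups in the fit 1 call was left (Cyp3a13), and with no variance trend 2 (Cyp2a12 and Cyp3a13). The Cyp2b10 call was also lost with no filter on dim genes and with the mean of probe sets. Without WT polysome replicate 1 lacking methionine 0 members were called, without its replicate 2 there were 2, and without WT polysome replicate 2 with methionine there was 1. The sign stayed positive for all 6 genes under every scaling, filter and left-out array tried.

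The other bright members lay on the same side in WT polysomes without passing the test. All 14 P450 genes with a mean signal of 1000 or more had a positive change and 4 of them were called, with 55.2% positive and 5.93% called higher among all 1602 genes of that brightness (a grouping chosen after the data were seen). Cyp3a11, the main drug-metabolising Cyp3a enzyme of mouse liver, changed by 0.59 ± 0.15 in WT polysomes (adjusted p = 0.0535), with 11920.2 and 12789.7 without methionine, against 7959 and 8458 with it. Cyp2f2, which oxidises naphthalene, had 0.57 ± 0.15 (adjusted p = 0.057), and Cyp3a25 had 0.67 ± 0.18 (adjusted p = 0.0647). The 7 tested Cyp2d genes, a family of drug and steroid oxidases, ranged over -0.26 to 0.58 with a median of 0.43, 6 of 7 positive and 0 called. Within it Cyp2d9 had 0.44, Cyp2d10 0.55, Cyp2d22 0.37 and Cyp2d26 0.43 (log2). Cyp2e1 had 0.35 ± 0.13 (adjusted p = 0.164), with 16501 and 14824 without methionine, against 11638 and 12859 with it, so its arrays were apart while the change was small.

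Only 4 members had a negative sign in WT polysomes, and none of them passed the test. Cyp2g1, a P450 best known from olfactory mucosa, had -0.81 ± 0.34 (adjusted p = 0.236) at signals of 27.2 and 6.54 without methionine, against 34.8 and 43.0 with it. The vitamin D 25-hydroxylase Cyp2r1 had -0.23, the fatty acid hydroxylase Cyp2u1 -0.21 and Cyp2d40 -0.26. Among the remaining family 4 genes, Cyp4f13, Cyp4f14 and Cyp4v3 had 0.55, 0.56 and 0.56, with adjusted p of 0.178, 0.292 and 0.178. Cyp4a12a, a fatty acid omega-hydroxylase, had 0.13 ± 0.30 and Cyp2b9 0.18 ± 0.65.

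Promoters are shown for the 6 genes called in WT polysomes, which were picked by that call alone. Each is the RefSeq window (GRCm38.p6) of 300 bases, 250 before and 50 after the annotated gene start, written 5′ to 3′ along the gene. RefSeq windows were found for 34 of the 43 members. Cyp1a2 lies at chr9:57683606-57683905 on the minus strand, Cyp2a12 at chr7:27028840-27029139 on the plus strand, Cyp2b10 at chr7:25897408-25897707 on the plus strand, Cyp2j5 at chr4:96664070-96664369 on the minus strand, Cyp3a13 at chr5:137921570-137921869 on the minus strand and Cyp4f15 at chr17:32685409-32685708 on the plus strand. Capitals mark the only motif matches found in these windows, read on either strand.
Cyp1a2: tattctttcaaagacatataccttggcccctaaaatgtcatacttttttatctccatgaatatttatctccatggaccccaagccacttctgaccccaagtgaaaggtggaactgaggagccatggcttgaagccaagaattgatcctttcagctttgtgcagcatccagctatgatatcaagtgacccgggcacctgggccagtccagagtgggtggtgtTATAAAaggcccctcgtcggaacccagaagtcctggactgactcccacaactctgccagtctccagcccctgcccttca
Cyp2a12: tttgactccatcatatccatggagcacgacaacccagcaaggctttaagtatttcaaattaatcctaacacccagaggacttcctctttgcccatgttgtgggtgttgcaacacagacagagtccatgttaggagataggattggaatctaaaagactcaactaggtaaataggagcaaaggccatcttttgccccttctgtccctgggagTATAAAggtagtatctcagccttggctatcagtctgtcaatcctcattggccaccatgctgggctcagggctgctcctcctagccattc
Cyp2b10: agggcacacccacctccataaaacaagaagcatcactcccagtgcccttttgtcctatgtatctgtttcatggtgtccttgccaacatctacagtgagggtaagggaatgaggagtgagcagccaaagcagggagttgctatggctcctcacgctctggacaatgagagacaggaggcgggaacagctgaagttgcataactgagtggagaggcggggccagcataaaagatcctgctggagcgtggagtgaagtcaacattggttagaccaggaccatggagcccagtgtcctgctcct
Cyp2j5: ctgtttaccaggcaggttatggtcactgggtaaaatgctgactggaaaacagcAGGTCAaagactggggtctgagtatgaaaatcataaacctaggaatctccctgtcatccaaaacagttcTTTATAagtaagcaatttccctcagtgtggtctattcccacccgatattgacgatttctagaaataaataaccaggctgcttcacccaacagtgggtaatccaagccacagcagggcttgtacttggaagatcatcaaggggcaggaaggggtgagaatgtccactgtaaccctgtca
Cyp3a13: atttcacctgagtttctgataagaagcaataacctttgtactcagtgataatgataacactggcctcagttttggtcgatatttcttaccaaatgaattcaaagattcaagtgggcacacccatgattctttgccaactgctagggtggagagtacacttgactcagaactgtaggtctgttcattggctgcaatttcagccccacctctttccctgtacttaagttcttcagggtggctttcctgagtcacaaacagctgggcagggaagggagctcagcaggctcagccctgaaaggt
Cyp4f15: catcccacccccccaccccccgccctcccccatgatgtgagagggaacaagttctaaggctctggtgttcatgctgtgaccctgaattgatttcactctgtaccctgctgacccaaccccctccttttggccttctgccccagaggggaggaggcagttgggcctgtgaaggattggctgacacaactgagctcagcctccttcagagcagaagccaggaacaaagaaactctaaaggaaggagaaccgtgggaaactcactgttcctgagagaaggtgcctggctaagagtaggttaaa
The TATA box letters TATAAA occur in 3 of the 6 windows (Cyp1a2, Cyp2a12 and Cyp2j5), in 12 of the 34 member windows and in 13.6% of all 32851 windows of the same length. The nuclear receptor half-site AGGTCA occurs in 1 of the 6 (Cyp2j5), in 9 of 34 members and in 16.3% of all windows. Neither the D-box TTATGTAA (0 of 34 members, 0.938% of all windows), the C/EBP-ATF composite letters TGATGNAA (1 of 34, 3.97%), the HNF1 half-site GTTAAT (2 of 34, 7.1%) nor the HNF4 letters TGNACTTTG (4 of 34, 1.41%) occurs in the 6. Both strands were searched, no motif contains another, and a match or its lack describes only these windows.

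In unfractionated RNA no P450 gene passed the test of methionine omission. In KO unfractionated RNA 0 of 31 members were called (0% of all genes, limma, and 1 member at an unadjusted p under 0.05), and in WT unfractionated RNA 0 of 31 (0.0641% of all genes, 0.0458% higher and 0.0183% lower, and 5 members at an unadjusted p under 0.05). The P450 medians were 0.13 in KO and 0.27 in WT livers, with 24 and 25 of 31 positive. Cyp3a13 came nearest: it read 1446 and 1453 in KO livers without methionine, against 1259 and 1286 with it, and 1722 and 2246 in WT livers without methionine, against 835 and 1022 with it. Its WT change of 1.08 ± 0.20 (adjusted p = 0.0624) was close to that in WT polysomes, and it was called (adjusted p = 0.0405) when the fractions of a pool were treated as correlated. Cyp2b10 read 255 and 168 in KO livers without methionine, against 158 and 227 with it, and 144 and 168 in WT livers without methionine, against 69.7 and 52.7 with it. The WT arrays were apart and the change was 1.16 ± 0.31 (adjusted p = 0.307). For Cyp1a2, Cyp2a12, Cyp2j5 and Cyp4f15 the WT unfractionated changes were 0.34, 0.17, 0.34 and 0.36 (log2), below their values in WT polysomes.

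The test of that difference between fractions did not pass for any member. The polysome minus unfractionated methionine effect had 0 of 31 called in KO livers (0% of all genes, and 1 member at an unadjusted p under 0.05) and 0 of 31 in WT livers (0% of all genes, and 4 at that level), with medians of 0.019 and 0.28. In WT livers the smallest p belonged to Cyp2a12, with 0.71 ± 0.21 (adjusted p = 0.588), Cyp1a2, with 0.59 ± 0.22, and Cyp2f2, with 0.50 ± 0.21. On the negative side came Cyp2r1, with -0.50 ± 0.30, Cyp2g1, with -0.62 ± 0.48, and Cyp4f39, with -0.60 ± 0.64. With the pool as a fixed block 16 of all genes tested were called in WT livers, as a random block 0, and 0 members with either. In KO livers Cyp4f15 was first, with 0.50 ± 0.22 (adjusted p = 1).

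In KO livers no member passed, in either fraction. In KO polysomes 2 members had an unadjusted p under 0.05: Cyp4f15, given above, and Cyp4a12a, with 0.75 ± 0.30 (adjusted p = 0.463). Cyp4a12a read 4227 and 5886 in KO polysomes without methionine, against 2142 and 4088 with it, so the media were apart by a narrow margin next to the gap between replicates. Cyp2d40 had 1.04 ± 0.54. On the lower side the smallest p in KO polysomes were those of Cyp4b1, a lung-type P450, with -0.58 ± 0.30 (adjusted p = 0.606), Cyp4f14, with -0.42 ± 0.26, and Cyp2g1, with -0.30 ± 0.34. In KO unfractionated RNA the smallest p on the higher side were those of Cyp4v3, with 0.44 ± 0.21 (adjusted p = 0.869), Cyp2d13, with 0.63 ± 0.30, and Cyp4a12a, with 0.53 ± 0.30. On the lower side they were those of Cyp2a12, with -0.17 ± 0.15, Cyp4f14, with -0.30 ± 0.26, and Cyp2r1, with -0.19 ± 0.21.

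Whether the methionine effect depended on Gcn2 was tested directly, as the KO minus WT difference of both effects. In polysome RNA 0 of 31 P450 genes were called (0.055% of all genes, 0.0366% higher and 0.0183% lower, limma). Unadjusted, 7 members had p under 0.05, and the smallest adjusted p was 0.282. The median difference was -0.36, and 25 of 31 members were negative, beside a median of -0.03 over all genes. Cyp1a2 had -0.78 ± 0.22 (95% interval -1.25 to -0.30), Cyp2a12 -0.70 ± 0.21 (-1.14 to -0.27), Cyp3a13 -0.86 ± 0.28 (-1.46 to -0.26) and Cyp2b10 -1.27 ± 0.44 (-2.21 to -0.32). The highest positive difference was that of Cyp2d40, with 1.30 ± 0.77. In unfractionated RNA 0 of 31 were called (0.0458% of all genes, 0.0275% higher and 0.0183% lower). Unadjusted, 2 members had p under 0.05: Cyp3a13, with -0.89 ± 0.28 (adjusted p = 0.655), and Cyp2b10, with -1.04 ± 0.44 (adjusted p = 0.829). A difference between the KO and the WT response was thus not shown for any single member, and the same WT arrays enter this difference and the WT effect. Cyp4f15 had a polysome difference of -0.071 ± 0.22, with a 95% interval of -0.55 to 0.40.

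**Figure D2:**
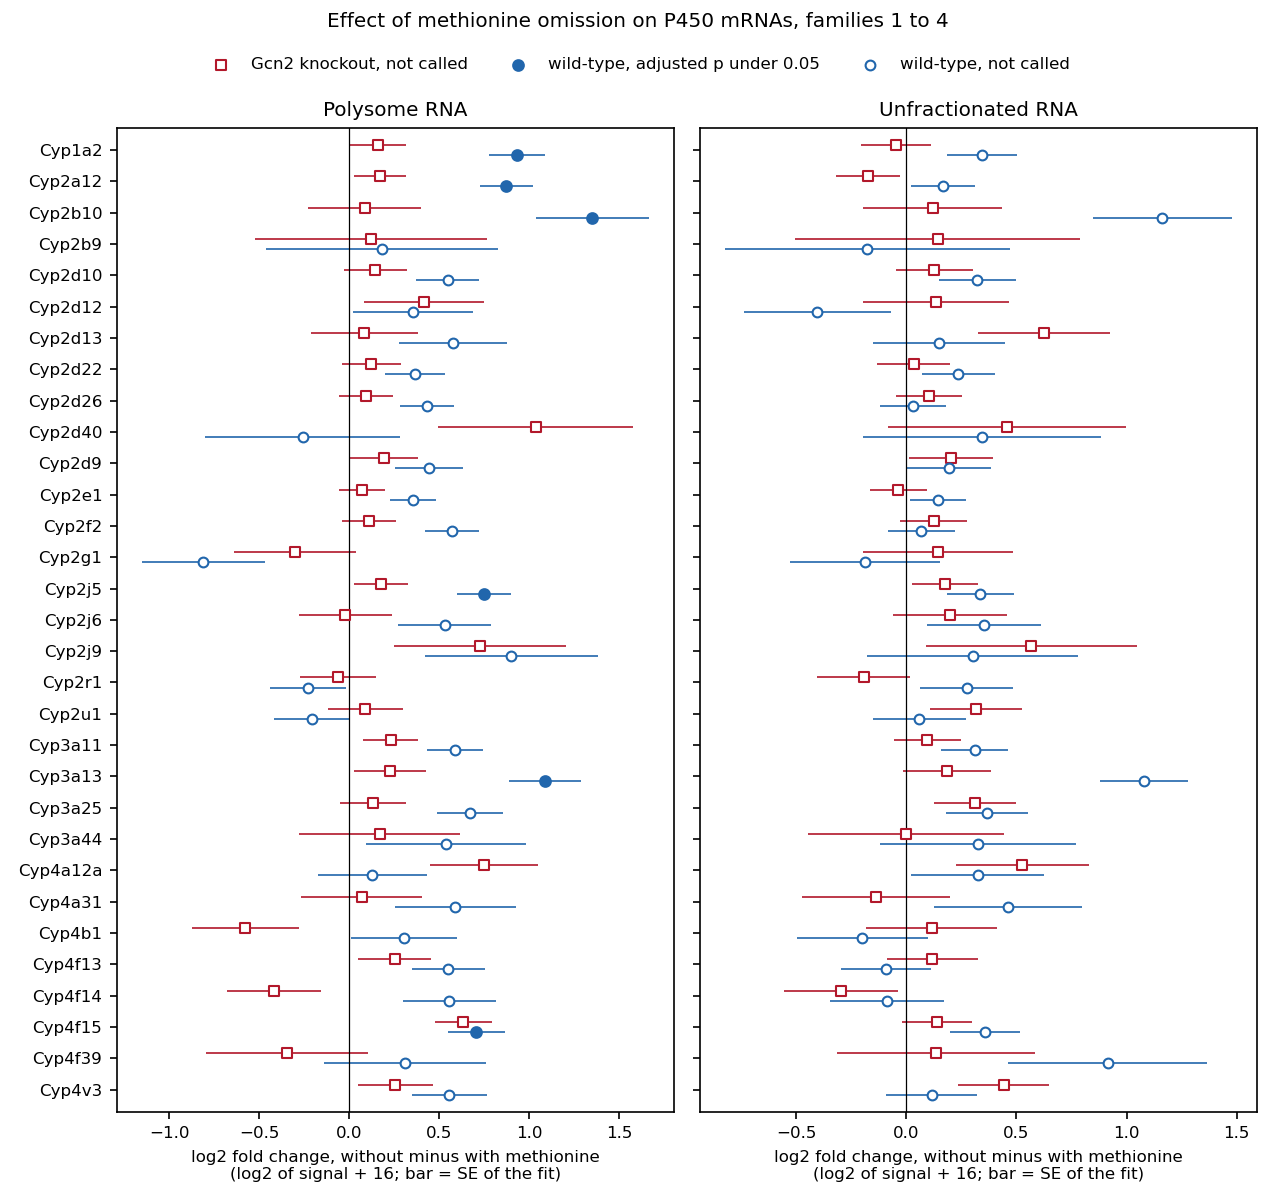
Log2 change (log2 of signal + 16; bars are SE of the fit) without minus with methionine for the 31 tested P450 genes, in polysome RNA (left) and unfractionated RNA (right). KO livers are red squares and WT livers blue circles, filled where the adjusted p was under 0.05: 6 WT polysome values are filled, and no KO value.

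Acute phase protein mRNAs moved in the same arrays. Of 20 acute phase genes, all tested, 1 was called higher in KO polysomes without methionine and 12 in WT polysomes, with medians of 0.43 and 1.25. Their summed signal was 87411 to 95661 in KO polysomes without methionine, against 69174 to 76004 with it, and 131512 to 173807 in WT polysomes without methionine, against 60678 to 74936 with it. The serum amyloid Saa1 had 3.16 ± 0.63 in WT polysomes (adjusted p = 0.0164) and haptoglobin, Hp, had 1.27 ± 0.19. The part of this response in the P450 values was not tested. Hepatocyte markers summed to 112628 to 136841 in KO polysomes without methionine, against 118174 to 122101 with it, and to 127320 to 139733 in WT polysomes without methionine, against 103211 to 121342 with it. In WT polysomes 9 of 9 tested hepatocyte markers were positive, 1 was called (Ahsg, 0.69 ± 0.13) and their median was 0.20, below the P450 median of 0.55.

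Among regulators and partners of P450 enzymes 1 gene passed the test in the same comparison, Ephx1. Of 23 tested receptors and transcription factors of P450 genes, 0 were called in either genotype on polysomes, with medians of -0.095 in KO and 0.11 in WT. Nr1i3 had -0.029 in KO and 0.44 ± 0.18 in WT polysomes (adjusted p = 0.221), and Nr1i2 0.19 and 0.38. Ahr had -0.40 in KO and -0.15 in WT, and Hnf4a, a master regulator of hepatocyte genes, -0.057 and -0.32. Of 6 tested electron donors and membrane partners, Ephx1, the microsomal epoxide hydrolase that acts on P450 products, was called in WT polysomes with 0.80 ± 0.16 (adjusted p = 0.0166). Of 11 heme genes 0 were called. Of 13 tested P450 genes of other families 1 was called in WT polysomes, the sterol 27-hydroxylase Cyp27a1 with 0.68 ± 0.16 (adjusted p = 0.0322), and 11 of 13 were positive with a median of 0.62.

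Zonation and sex-bias lists were set beside these values because several members are zonated or sex-biased. In WT polysomes 0 of 9 pericentral genes (median 0.42) and 2 of 8 periportal genes (median 0.15) were called without methionine, the periportal ones being Hsd17b13 and Ctsc. Neither the 9 male-biased genes (median 0.32) nor the 6 female-biased genes (median 0.22) outside these P450 families held a call there. The other cell type lists held 0 called genes in WT polysomes without methionine: Kupffer cells 0 of 9 (median 0.15), endothelial cells 0 of 7 (median 0.67), stellate cells 0 of 5 (median 0.11), cholangiocytes 0 of 2 (median 0.97), erythroid cells 0 of 1 (0.37) and lymphocytes 0 of 2 (median 1.31). The endothelial, cholangiocyte and lymphocyte medians lay above the P450 median of 0.55, and their part in the P450 values was not tested.

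The second comparison asks which P450 mRNAs were richer or poorer on polysomes than in unfractionated RNA. All arrays were scaled by the authors to one mean, so a polysome difference is relative to that mean and does not give the share of an mRNA that is ribosome-bound. Over all 16 arrays, 19 of 31 tested P450 genes were called, 2 higher and 17 lower in polysome RNA, with a median log2 difference of -0.31. Among all genes tested 31.4% were called, 16.6% higher and 14.8% lower, with a median of 0.024. Of the 14 members with a mean signal of 1000 or more, 12 were called lower and 0 higher, beside 32.1% lower and 20.5% higher among all genes of that brightness. The split was 0 higher and 15 lower with median scaling, and 0 higher and 12 lower with quantile normalization. Quantile normalization ended the calls of 6 bright members, Cyp1a2, Cyp2d9, Cyp2d26, Cyp2e1, Cyp2f2 and Cyp3a11, which leaves 6 of these 12.

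Cyp2d13 and Cyp2a12 had the lowest polysome signal relative to unfractionated RNA. Cyp2a12 ranged over 2107 to 4294 with a median of 2530 in polysome RNA, against 4431 to 5838 with a median of 5047 in unfractionated RNA, and the 8 polysome arrays lay below all 8 unfractionated arrays. Its difference was -0.87 ± 0.073 (adjusted p = 5.07e-07). Cyp2d13 had -1.01 ± 0.15 (adjusted p = 0.000136), and its other probe set -0.95. Cyp2d22, the mouse gene most often set beside human CYP2D6, had -0.50 ± 0.083. Its polysome arrays read 642.8 to 896.7, below its unfractionated arrays at 948.0 to 1240.9.

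By subfamily, 5 of 7 tested Cyp2d genes, 3 of 4 Cyp3a genes, 2 of 3 Cyp2j genes and 2 of 4 Cyp4f genes were called lower, and 0 of 2 Cyp2b and 0 of 2 Cyp4a genes. Among Cyp3a genes Cyp3a11 had -0.38 ± 0.077, Cyp3a13 -0.54 ± 0.10 and Cyp3a25 -0.58 ± 0.092, and Cyp3a44 did not pass with -0.25 ± 0.22. Among Cyp2d genes Cyp2d9 had -0.31 ± 0.095, Cyp2d10 -0.52 ± 0.087 and Cyp2d26 -0.23 ± 0.075. Cyp2d9 and Cyp2d26 lost their calls in 4 of 13 alternatives each, where their values came down to -0.064 and -0.020, and in 4 and 9 of 16 fits without a single array. Cyp2j5 and Cyp2j6 had -0.58 ± 0.076 and -0.54 ± 0.13, though the second Cyp2j5 probe set gave only -0.18. In family 4, Cyp4f15 had -0.64 ± 0.079, Cyp4f14 -0.58 ± 0.13 and Cyp4b1 -0.59 ± 0.15. The highly expressed Cyp2e1 had a small difference of -0.27 ± 0.064 (adjusted p = 0.00477), Cyp1a2 had -0.32 ± 0.079 and Cyp2f2 -0.40 ± 0.076. Under quantile normalization these were -0.079, -0.075 and -0.16 (adjusted p = 0.304, 0.524 and 0.112), and Cyp3a11 had -0.19 (adjusted p = 0.0658). Cyp4f13 (-0.27 ± 0.10, adjusted p = 0.0608) and Cyp4v3, the mouse counterpart of human CYP4V2 (-0.27 ± 0.10, adjusted p = 0.063), were called with the pool of livers as a fixed block (adjusted p = 0.034 and 0.0109) and as a random block (adjusted p = 0.0284 and 0.0258).

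Cyp2u1 and Cyp2r1 were the 2 members called higher on polysomes. Cyp2u1 read 195.1 to 268.6 in polysome RNA, against 143.3 to 247.7 in unfractionated RNA, a difference of 0.31 ± 0.11 (adjusted p = 0.0358). Cyp2r1 read 338 to 608 in polysome RNA, against 325 to 471 in unfractionated RNA, a difference of 0.30 ± 0.11 (adjusted p = 0.0393). The ranges of the fractions overlapped for both genes. Both calls were lost under median scaling, quantile normalization and without the filter on dim genes, with adjusted p of up to 0.113 for Cyp2u1 and 0.139 for Cyp2r1. Leaving out single arrays ended the call in 11 of 16 fits for Cyp2u1 and 10 of 16 for Cyp2r1.

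The 8 pools of livers were also compared singly, polysome minus unfractionated RNA of the same pool number. Lower on polysomes in 8 of 8 pools were 11 of the 31 members, beside 8.88% of all genes, and higher in 8 of 8 was 1 member, Cyp2u1, beside 10.8% of all genes. The 11 were Cyp2a12, Cyp2d10, Cyp2d13, Cyp2d22, Cyp2e1, Cyp2j5, Cyp2j6, Cyp3a11, Cyp3a13, Cyp3a25 and Cyp4f15. Cyp4a12a was the bright member with the least difference, 0.037 ± 0.15, lower in 4 pools and higher in 4.

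**Figure D3:**
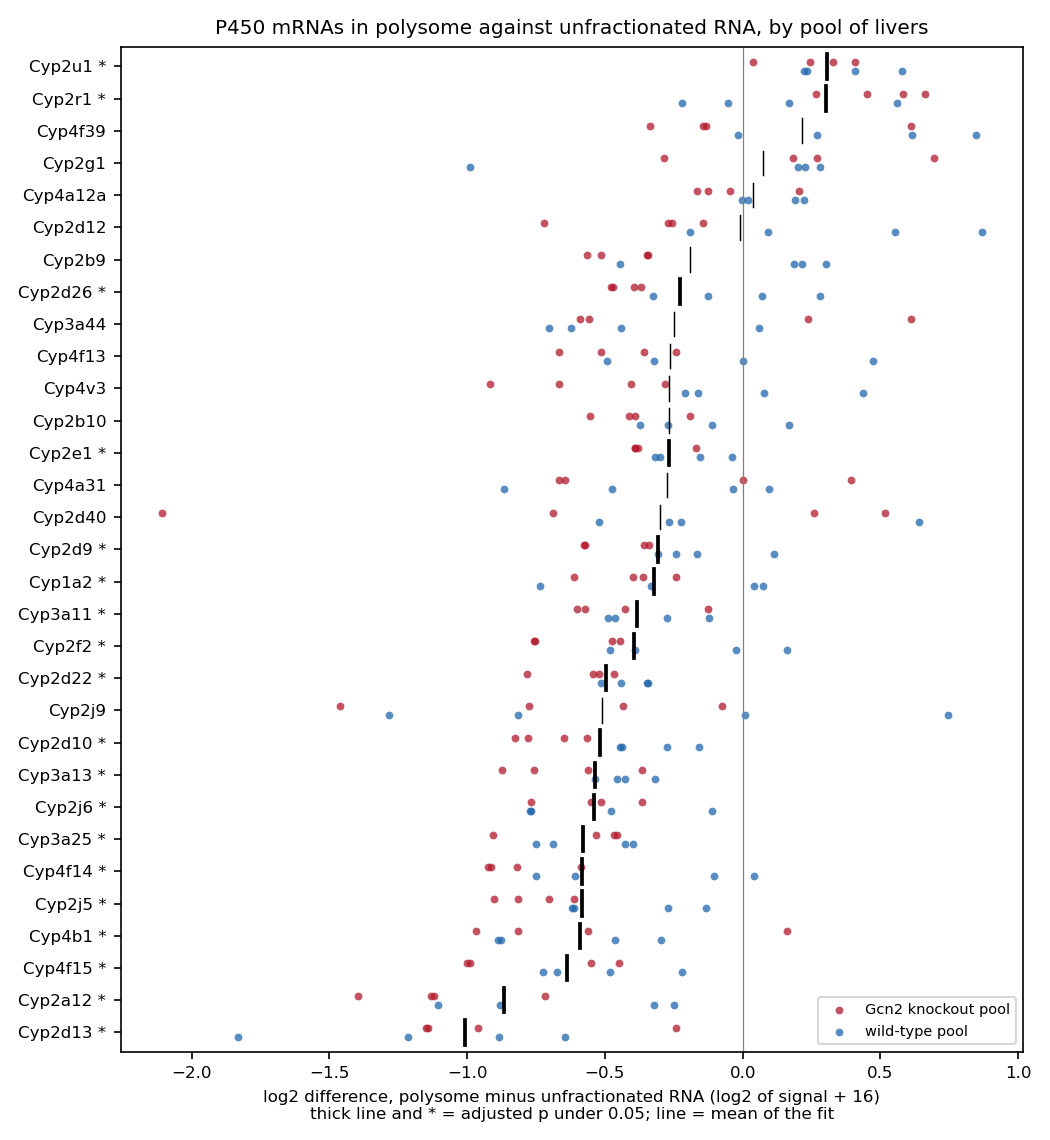
Log2 difference (log2 of signal + 16), polysome minus unfractionated RNA, for each of the 8 pools of livers and 31 P450 genes ordered by their mean, with KO pools in red and WT pools in blue. Lines are means of the fit, thick and starred where the adjusted p was under 0.05: 17 lie left of 0 and 2, Cyp2u1 and Cyp2r1, right of it.

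Knockout pools lay further to the lower side than wild-type pools for most members, but the test of that difference passed for none. The KO minus WT difference of the polysome effect was negative for 25 of 31 members, with a median of -0.22 beside -0.036 over all genes. Called were 0 of 31 members and 0% of all genes (limma), and 6 members had an unadjusted p under 0.05. With the pool as a fixed block 76 of all genes tested were called, as a random block 30, and 0 members with either. The smallest p on the negative side were those of Cyp2a12 (-0.45 ± 0.15, adjusted p = 0.339), Cyp4v3 (-0.60 ± 0.21) and Cyp2f2 (-0.42 ± 0.15). On the positive side stood Cyp2r1 with 0.38 ± 0.21.

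Among 23 tested receptors and transcription factors of P450 genes, 9 were called higher on polysomes and 1 lower. Over all genes tested the shares were 16.6% higher and 14.8% lower. Of the 23, 13 were positive and 10 negative, with a median of 0.20. Rxra, the common partner of CAR, PXR and Ppara, had 0.81 ± 0.11, Hnf4a 0.56 ± 0.074, the glucocorticoid receptor Nr3c1 0.71 ± 0.084 and Ppara 0.62 ± 0.21. The bile acid receptor Nr1h4 was the 1 called lower, with -0.47 ± 0.13. Of 6 electron donors and membrane partners, Cyb5b, the outer mitochondrial membrane cytochrome b5, was higher with 0.97 ± 0.10, and Cyb5r3 and Ephx1 were lower. Of 11 heme genes 5 were lower and 1, Fech, was higher. Alas1, the rate-limiting enzyme of heme synthesis, had -1.08 ± 0.19. Of 13 P450 genes of other families 4 were lower (Cyp7b1, Cyp20a1, Cyp27a1 and Cyp51) and 0 higher.

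In the other lists calls on polysomes were to the lower side. Among all genes tested 14.8% were called lower, and 32.1% of those with a mean signal of 1000 or more. Male-biased genes had 7 of 9 lower and periportal genes 6 of 8. Pericentral genes had 3 of 9 lower, hepatocyte markers 3 of 9 and acute phase genes 7 of 20, near the share of bright genes. Female-biased genes had 0 of 6 called and sex chromosome transcripts 1 of 3. Kupffer cell markers had 8 of 9 lower with a median of -0.76, and summed to 868 to 1694 in polysome RNA, against 1461 to 3037 in unfractionated RNA, with no marker at 0. Endothelial markers had 2 of 7 lower, stellate markers 2 of 5, cholangiocyte markers 0 of 2, the 1 erythroid marker was lower and lymphocyte markers had 0 of 2 called. The part of these other lists in the P450 values was not tested.

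The third comparison sets KO against WT livers over both media. In polysome RNA 1 of 31 P450 genes was called, Cyp2g1, which was higher in KO (4.58% of all genes were called, 2.66% higher and 1.92% lower), and in unfractionated RNA 0 of 31 (1.08% of all genes, 0.54% in each direction, limma, and 5 members at an unadjusted p under 0.05). Cyp2g1 read 59.4 and 62.9 in KO polysomes without methionine, against 27.2 and 6.54 in WT polysomes without it. With methionine it read 79.1 and 79.2 in KO and 34.8 and 43.0 in WT polysomes. The 4 KO arrays lay above the 4 WT arrays in both fractions, but every value was below 80, so this is a difference between dim signals. The KO minus WT difference was 1.05 ± 0.24 in polysome RNA (adjusted p = 0.0209) and 0.77 ± 0.24 in unfractionated RNA (adjusted p = 0.217). When both WT polysome arrays lacking methionine were left out, KO and WT were compared with methionine only, 2 against 2 arrays. The polysome difference was then not called (adjusted p = 0.474, limma), nor was it with only the polysome arrays in the fit. Leaving out some single arrays also ended the call, and the difference then ranged over 0.82 to 1.29 across all single arrays left out.

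Cyp2b10 had a KO minus WT difference of 0.66 ± 0.22 in polysome RNA (adjusted p = 0.105) and 0.90 ± 0.22 in unfractionated RNA (adjusted p = 0.0756), and neither passed. In unfractionated RNA it averaged 202 ± 46.5 in KO and 109 ± 56.1 in WT livers (SD, n = 4 each). The genotype gap was wider with methionine, where KO read 158 and 227 and WT 69.7 and 52.7, than without, where KO read 255 and 168 and WT 144 and 168; the test of that difference, given above, did not pass. The unfractionated difference was called with the fractions of a pool treated as correlated (adjusted p = 0.0469) and with only the unfractionated arrays in the fit (adjusted p = 0.0448). The other 2 probe sets gave 1.19 and 1.15. Nr1i3, the receptor that acts on Cyp2b10, had 0.45 ± 0.13 in polysome RNA (adjusted p = 0.0543) and 0.44 ± 0.13 in unfractionated RNA (adjusted p = 0.151), and neither passed.

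Cyp4a12a came nearest to a call on the negative side. It read 4227 and 5886 in KO polysomes without methionine, against 7011 and 6670.1 in WT, and 2142 and 4088 in KO polysomes with methionine, against 6115 and 6405 in WT. All 4 KO polysome arrays lay below all 4 WT polysome arrays. The difference was -0.77 ± 0.21 in polysome RNA (adjusted p = 0.0533) and -0.62 ± 0.21 in unfractionated RNA (adjusted p = 0.304), and the first was called with the fractions of a pool treated as correlated (adjusted p = 0.0316). The related Cyp4a31 had -0.46 ± 0.24 and -0.55 ± 0.24, with signals of 43.5 to 110.8 in KO and 55.7 to 144.4 in WT arrays that overlapped. The male-biased Hsd3b5, a steroid dehydrogenase, had -0.68 ± 0.20 in polysome RNA (adjusted p = 0.0658). Of 9 male-biased genes outside these P450 families 0 were called in either fraction, while 7 were negative and 2 positive in each. Their medians were -0.36 in polysome and -0.21 in unfractionated RNA, beside -0.019 and 0.0067 over all genes. The male-biased Cyp2d9 had -0.20 ± 0.13 in polysome and 0.11 ± 0.13 in unfractionated RNA. The female-biased Cyp2b9 had 0.042 ± 0.46 and 0.55 ± 0.46, within its wide replicate spread.

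**Figure D4:**
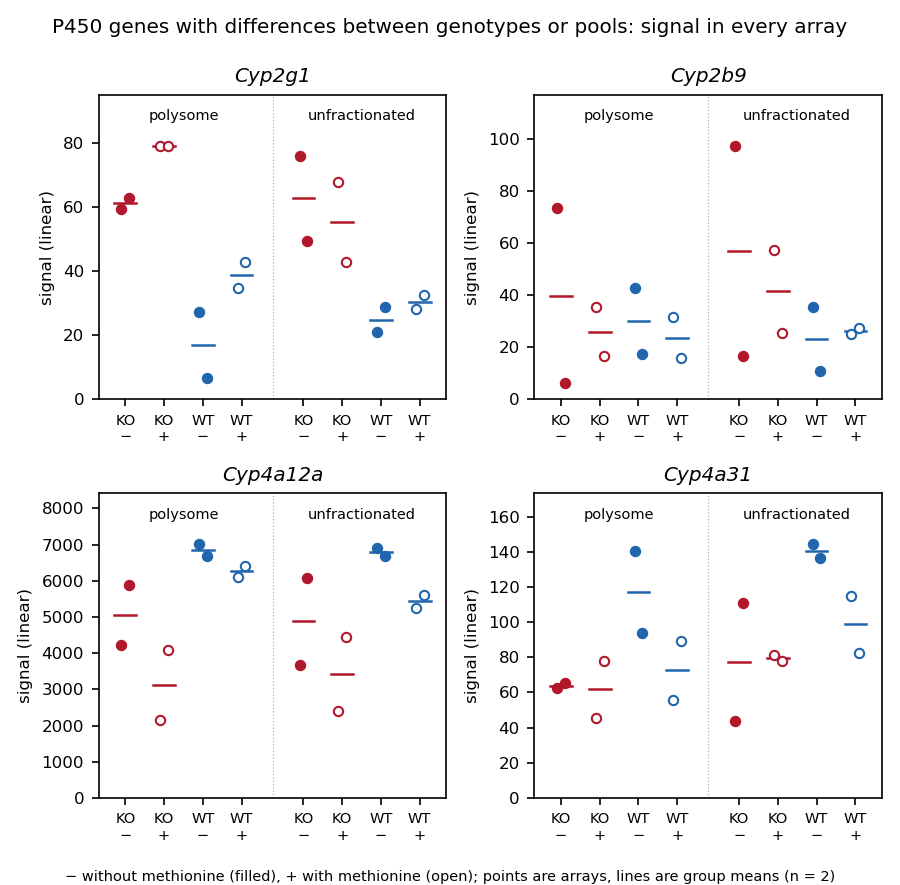
Signal (linear) of Cyp2g1, Cyp2b9, Cyp4a12a and Cyp4a31 in every array, polysome left of unfractionated, KO (red) left of WT (blue), without methionine (-, filled) and with methionine (+, open), lines at the mean of 2 arrays. The KO points of Cyp2g1 lie above the WT points in both fractions and those of Cyp4a12a lie below the WT points in polysome RNA, while the replicates of Cyp2b9 in KO arrays without methionine stand far apart, at 73.4 and 6.18 in polysome and 97.4 and 16.8 in unfractionated RNA.

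No other member passed the genotype test. The 31 genes had a median KO minus WT difference of -0.11 in polysome RNA and 0.12 in unfractionated RNA. The first was 0.085 with methionine only, in the fit without both WT polysome arrays lacking it. The second was -0.008 with median scaling. On the lower side in polysome RNA followed Cyp2f2 (-0.34 ± 0.11, adjusted p = 0.083) and Cyp4v3 (-0.43 ± 0.15). On the higher side stood Cyp2r1 (0.43 ± 0.15, adjusted p = 0.119). In unfractionated RNA Cyp2d26 had 0.33 ± 0.11 (adjusted p = 0.249), with 6577 to 7403 in the 4 KO arrays and 5214 to 5745 in the 4 WT arrays, which did not overlap. Cyp2d13 had -0.38 ± 0.21 there. Cyp1a2 and Cyp3a11 had 0.21 ± 0.11 and 0.20 ± 0.11 in unfractionated RNA, and Cyp3a13 and Cyp3a25 had 0.0096 ± 0.14 and 0.062 ± 0.13.

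Heme synthesis and the listed partners gave a few genotype calls beside the P450 genes. Alas1 read 4499.9 and 4629 in KO polysomes without methionine, against 1320.2 and 1699 in WT, and 1689 and 4858 in KO polysomes with methionine, against 2089.9 and 1202 in WT. Its KO minus WT difference was 1.22 ± 0.27 in polysome RNA (adjusted p = 0.0177) and 1.04 ± 0.27 in unfractionated RNA (adjusted p = 0.0984), and 1 KO polysome array overlapped the WT arrays. Cpox, a later enzyme of the pathway, was lower in KO polysomes (-0.79 ± 0.17). Cyb5r3, the cytochrome b5 reductase, was lower in KO polysomes (-0.66 ± 0.12), Ephx1 was higher in KO unfractionated RNA (0.53 ± 0.11) and the transcription factor Onecut1 was higher in KO polysomes (1.42 ± 0.31). Of 13 P450 genes of other families 0 were called in either fraction.

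Some markers of other cells and acute phase genes were called between genotypes in the same arrays. Kupffer markers summed to 868 to 1443 in KO polysome arrays, against 1125 to 1694 in WT, which overlapped, and to 1461 to 2044 in KO unfractionated arrays, against 2633 to 3037 in WT, which did not. Their median differences were -0.028 and -0.49, with 1 of 9 tested markers called in either fraction, Cd5l (-0.93 ± 0.19 in polysome and -1.42 ± 0.19 in unfractionated RNA). The lymphocyte gene Ighm was higher in KO by 3.50 ± 0.46 in polysome and 3.10 ± 0.46 in unfractionated RNA, while Ptprc, the other tested lymphocyte marker, had -0.16 ± 0.30 and -0.34 ± 0.30. Among 20 acute phase genes 3 were lower in KO polysomes (Saa1, Saa2 and Hp) and 2 in KO unfractionated RNA. Among zonation and other cell type lists there was 1 further call each in polysome RNA: Slc1a2 of 9 pericentral genes, Hsd17b13 of 8 periportal genes and Rgs5 of 5 stellate markers. Their part in the P450 values was not tested.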

How the data were processed

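RNA of perfused mouse livers, pooled from 2 livers per condition, was labelled with the Affymetrix one-cycle kit, per the labels' protocols. The deposited values are intensities, linear signals for 45101 probe sets. For the signal algorithm and the probes' genome build, nothing was given in the sources used here. The trimmed mean was 150 in every array (2% of probe sets trimmed at each end), so the deposited intensities had been scaled to one mean. They were used as they stand. Scaling to a common median is only an alternative, since array medians (18.3 to 27.7) lie among dim probe sets and that scaling widened the median replicate difference from 0.249 to 0.404 (log2) in KO unfractionated RNA with methionine and in 7 other groups by less. A second deposited table of z scores was not used.

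Probe sets with 1 symbol (34945; 932 had several, 9160 none and 64 are controls) were reduced to the brightest per gene, giving 18193 genes. Symbols come from the GEO platform annotation and were looked up in RefSeq (GRCm38.p6), which changed 0 of them. Log2(signal + 16) was fitted with limma 3.58.1 in R 4.3.3 (lmFit and eBayes with trend) to 8 group means of all 16 arrays. The dimmest 40% of genes were not tested. The 12 contrasts were tested two-sided, with Benjamini-Hochberg adjustment over 10916 genes and a threshold of 0.05. Fold changes are on the log2(signal + 16) scale, which understates changes of dim genes. The labels say that replicates are biological, so p-values measure the spread between pools of livers, and the number of arrays limits the precision. Polysome and unfractionated arrays that share genotype, medium and replicate number deviated together (r = 0.239, 0.229, 0.328 and 0.186), which is taken to mean that they are one pool. The labels do not say so. Same-numbered KO unfractionated arrays with and without methionine had r = 0.218, so r alone does not settle which arrays share a pool.

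On simulated data, changes of log2 size 1 and 2 were each given to 100 genes. For WT methionine omission in unfractionated RNA 38% and 82% were recovered, and for the genotype comparison there 64% and 99%. The simulated arrays varied independently, unlike arrays that share a pool, and polysome comparisons were not simulated. The genes named are the members called in a comparison (or, with none called, the smallest p in each direction) plus a set list of well-known members. Members and gene lists were chosen with earlier results of these data known. Alternatives covered scaling, pseudocount, filter, probe set choice, blocks, samples in the fit, the variance trend and left-out arrays.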

Additional observations from a re-analysis of the deposited data

How the results depend on the processing

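No called P450 value changed direction under the alternatives run. The 1 genotype call in polysome RNA, Cyp2g1, was replaced when genes needed a signal of 80 or more in 1 array. Cyp2g1 never reached 80, and Cyp4a12a was then called lower in KO (adjusted p = 0.047, limma). Some P450 medians changed sign. Genotype in polysome RNA was 0.085 without both WT polysome arrays lacking methionine, which left a comparison with methionine only (-0.11 in the main fit). Genotype in unfractionated RNA was -0.008 with median scaling (0.12 in the main fit). The KO fraction difference in the methionine effect, 0.019, was -0.0033 with quantile normalization. It was -0.0072 both with no filter on dim genes and with the mean of probe sets. With median scaling 0 P450 genes were called in WT polysomes without methionine (6 with the deposited scaling), with only the compared groups in the fit 1, and with no variance trend 2. Treating the fractions of a pool as correlated gave 1 call for methionine omission in WT unfractionated RNA, 1 for genotype in unfractionated RNA and 2 for genotype in polysome RNA. With only the compared groups in the fit, genotype gave 1 call in unfractionated RNA and 0 in polysome RNA. Without both WT polysome arrays lacking methionine, genotype in polysome RNA, then compared with methionine only, gave 0. Quantile normalization gave 12 calls between fractions instead of 19. Leaving out 1 array at a time, calls ranged over 0 to 1 (WT methionine, unfractionated), 0 to 7 (WT methionine, polysome), 0 to 1 (genotype, unfractionated), 0 to 2 (genotype, polysome) and 15 to 20 (fractions), and stayed at 0 in the 7 other comparisons. Lone arrays left by this were assumed to vary like the other groups. With the replicate number within a fraction as a block, genotype in polysome RNA gave 2 calls (Cyp2g1 and Cyp4a12a, adjusted p = 0.0197 for Cyp4a12a), WT methionine in polysomes 7, adding Cyp3a11 (adjusted p = 0.0475). With the pool as a fixed block the fractions gave 21 calls. As a random block the pool gave 7 for WT methionine in polysomes and 21 for the fractions. These blocks changed no P450 call count other than those named here. Within a fraction, same-numbered arrays of different groups correlated between -0.0646 and 0.218 in unfractionated RNA and between -0.0097 and 0.0434 in polysome RNA, where 3 of 6 pairs of groups in unfractionated RNA and 0 of 6 in polysome RNA passed 0.1. The numbers were therefore not taken to pair arrays there, which the correlations do not exclude. Over all genes, calls for WT methionine in polysomes ranged over 64 (compared groups only) to 359 (replicate block) around 282, for genotype in polysome RNA over 30 (without both WT arrays lacking methionine) to 634 (replicate block) around 500, for genotype in unfractionated RNA over 71 (no variance trend) to 135 around 118, for KO methionine in polysomes over 1 to 25 around 17, and for WT methionine in unfractionated RNA over 0 to 12 around 7. The KO minus WT methionine effect had 1 to 7 calls around 5 in unfractionated RNA and 1 to 15 around 6 in polysome RNA. The KO minus WT difference between fractions had 76 calls with the pool as a fixed block and 30 as a random block, where the fit without it had 0, and the WT fraction difference in the methionine effect had 16 and 0. With median scaling the median of all genes was -0.13 (-0.018 with the deposited scaling) for WT methionine in unfractionated RNA, 0.23 (-0.03) for the KO minus WT methionine effect in polysomes, -0.11 (0.0067) for genotype in unfractionated RNA, -0.15 (0.037) for the WT fraction difference in the methionine effect and 0.078 (-0.036) for the KO minus WT difference between fractions, where the P450 medians were 0.15, -0.062, -0.008, 0.096 and -0.092. The values of the 31 tested members in the 12 comparisons were also followed under all alternatives. Of these, 10144 kept both sign and call status, and 324 changed sign with no call in either fit. A further 40 gained a call and 96 lost one, with the sign kept. Signals under about 80 limit what can be said of the 17 members that never reached it.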

Other observations

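Replicate pools of KO livers stood apart for Cyp4a12a and Cyp2b9. In KO livers the male-biased Cyp4a12a read 3665 and 6083 in the 2 unfractionated arrays without methionine and 2402 and 4457 in those with it, and in all 4 KO pairs the array with the number 1 was the lower, in polysome RNA as well. In WT unfractionated RNA it read 6917 and 6674 without methionine and 5235 and 5619 with it, so WT pools lay closer together. The female-biased Cyp2b9 was the higher in array 1 of both KO groups in both fractions, at 97.4 and 16.8 in unfractionated RNA without methionine and 57.5 and 25.5 with it, in the pools where the male-biased Cyp4a12a was the lower. In WT arrays Cyp2b9 reached at most 42.7. These are values of single pools, chosen after they were seen, and no test was made of them.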
